A study of Mus musculus with 12 samples.

Results

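The 7 genes described here belong to the integrated stress response: Atf4, Atf5, Ddit3, Asns, Trib3, Ddit4 and Sesn2. They were chosen by name, and all 7 were found among the 9073 Ensembl gene IDs of the deposited count table by matching IDs to symbols. In the integrated stress response, kinases that sense amino acid shortage, unfolded proteins, viral RNA or low haem phosphorylate the translation initiation factor eIF2. Most protein synthesis then slows, while messages with upstream open reading frames, Atf4 first among them, are translated more. ATF4 switches on genes for amino acid supply and, under lasting stress, for cell death, and in sensory neurons the response is known for its activation after axon injury.

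The labels describe the samples as dorsal root ganglion (DRG) neurons of adult mice, with genotype RPL22HA+/+;Advillin-Cre+ in every group. Advillin-Cre, active in sensory neurons, turns on a haemagglutinin-tagged copy of ribosomal protein L22 (RiboTag), so that an anti-HA immunoprecipitation (IP) keeps RNA held by tagged ribosomes, and Input is the lysate before it. Input is not selected for sensory neurons and also held markers of other cells, given below. The adeno-associated virus given was AAV-control or AAV-shGpr151, the latter carrying a hairpin named for the orphan receptor gene Gpr151, which makes 4 groups of 3 count columns each: Input and IP with AAV-control, and Input and IP with AAV-shGpr151. According to the series design all mice had a sciatic nerve injury first and the neurons were cultured, whereas the extraction protocol speaks of fresh ganglia, and which holds cannot be told from the labels.

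The 12 columns held 1094523 to 2111544 counts. Chi-square per degree of freedom between columns was 0.981 to 1.05 in the 12 pairs from the same group and 1.802 to 156 in the 54 other pairs, so the columns of a group differed by no more than about counting noise. The 3 columns were therefore added up and a group taken as 1 sample, which leaves no replicate check of any difference. Whether columns of 2 groups overlap, as given for each gene below, thus shows counting spread only. The share of all genes without overlap is not given here. The 95% intervals hold only counting error, because they are computed from the summed counts alone. PCR copies of a molecule are not independent, so the intervals may be too narrow even for that. A gene is said to be called where the quasi-likelihood test of edgeR, run over the 12 columns, passed an adjusted p of 0.05 across 8312 genes, and such a call compares these libraries, not the conditions. For Gpr151 itself, the sums were 314 counts in IP control and 250 in IP shGpr151 (log2 ratio -0.0018, interval -0.25 to 0.24). The Input libraries held 24 and 13 (-0.86, interval -1.96 to 0.17). Because the hairpin's target was not called lower in either pair, libraries are named by their labels. Of 15 sensory neuron markers in the table, 15 were called higher in IP than in Input in control, as were 32.5% of all genes. The summed level of these markers in IP was 21380 CPM (counts scaled to the library total) in control and 20390 CPM in the library labelled shGpr151. In Input the same sum was 1622 CPM and 1842 CPM, so it was the higher in Input and the lower in IP in the libraries labelled shGpr151. The sum leans on abundant genes: 1 marker held 4926 of the 11328 counts in Input shGpr151. The median log2 ratio of the markers, shGpr151 to control, had the opposite signs, 0.069 in IP and -0.086 in Input. In bulk RNA, fewer cells of a type and less RNA per cell cannot be told apart.

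Atf4 (ENSMUSG00000042406), the transcription factor at the centre of the response, was higher in the Input library labelled shGpr151 than in Input control. Its 3 columns held 94, 84 and 120 counts in Input control and 115, 135 and 120 in Input shGpr151. The column of 120 counts in control reached the level of the lower columns of the other library, so the groups overlapped. The sums of 298 and 370 counts are 47.1 CPM (41.9 to 52.7) and 60.2 CPM (54.2 to 66.6) of the library totals. Between these libraries the log2 ratio was 0.33 (0.11 to 0.56), and it was called. All log2 ratios use library sizes from edgeR's trimmed mean of M values (TMM) unless total counts are named. The call held in 9 of 16 alternatives. It was lost without the first or the second Input control column or the second Input shGpr151 column, at 0.30, 0.22 and 0.26, in limma-voom, with a filter on a mean of 20 counts, at 0.27, and on summed libraries with the biological coefficient of variation (BCV) set to 10% or 20%.

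In IP the order was the other way round. The IP control columns of Atf4 held 396, 367 and 350 counts, those of IP shGpr151 250, 248 and 267. Scaled by TMM sizes the columns did not overlap, every control column being the higher. The sums of 1113 and 765 counts are 262 CPM (247 to 278) and 233 CPM (217 to 250), and their log2 ratio, -0.21 (-0.35 to -0.080), missed the call. It became a call in 6 of 16 alternatives, among them relative log expression (RLE) size factors.

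Ddit3 (ENSMUSG00000025408) encodes CHOP, a transcription factor induced by ATF4 and linked to cell death under lasting stress. It differed in the same directions as Atf4 and was called in both pairs. In Input control its columns held 122, 104 and 105 counts and in Input shGpr151 143, 159 and 140. No control column reached the other library, and the sums of 331 and 442 counts gave a log2 ratio of 0.44 (0.23 to 0.65), called higher. In IP control the columns held 309, 348 and 331 counts and in IP shGpr151 216, 209 and 226. These did not overlap on TMM sizes either, and the sums of 988 and 651 counts gave -0.27 (-0.42 to -0.13), called lower. Without the second IP control column this last call was lost. Ddit3 overlaps Mbd6 and Mars1 in the RefSeq annotation. The methionyl-tRNA synthetase gene Mars1 had 48 and 39 counts in Input and 64 and 42 in IP, control first. The labels do not say how reads at the overlap were counted.

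Atf5 (ENSMUSG00000038539), a related basic leucine zipper factor that is also controlled through upstream open reading frames, showed no called difference with the hairpin. Input control held 32, 46 and 37 counts and Input shGpr151 36, 24 and 35. The sums of 115 and 95 counts gave a log2 ratio of -0.25 (-0.66 to 0.15), with overlapping columns. IP control held 117, 121 and 128 counts and IP shGpr151 81, 110 and 106, which sum to 366 and 297 and gave 0.026 (-0.20 to 0.25). The IP interval leaves out a difference as large as that of Ddit3, whereas the wider Input interval reaches -0.66. Atf5 overlaps Nup62, which had 28 to 100 counts per library.

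**Figure D1:**
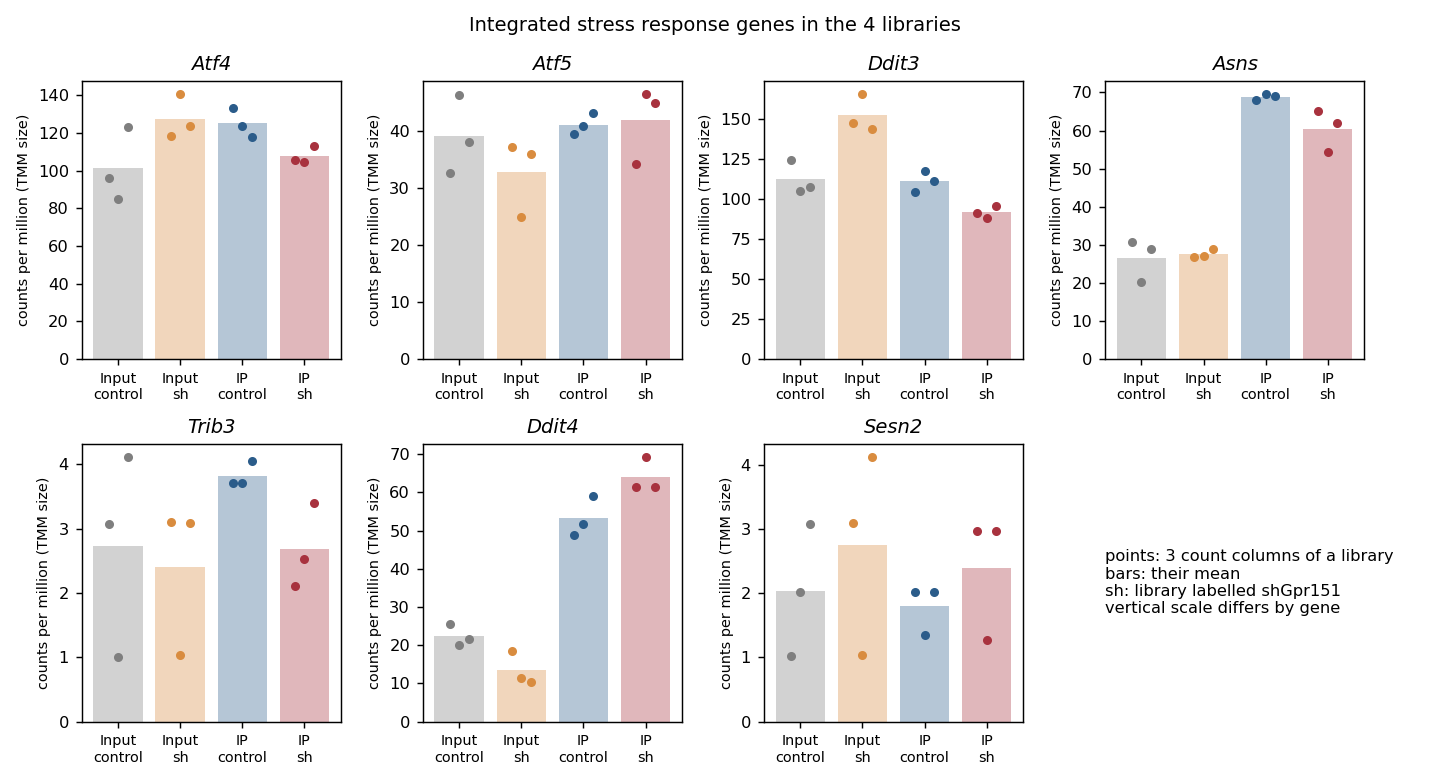
CPM of the TMM effective library size (vertical axes, from 0, with a scale of their own for each gene) for the 7 genes in the 4 libraries. Points are the 3 columns of a library and bars their mean; Asns and Ddit4 stand higher in both IP libraries than in both Input libraries, and Trib3 and Sesn2 rest on 1 to 12 counts per column.

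Asns (ENSMUSG00000029752) encodes asparagine synthetase, a textbook ATF4 target. In these libraries it differed mainly between IP and Input. Input control held 30, 20 and 28 counts and Input shGpr151 26, 26 and 28, with sums of 78 and 80 and a log2 ratio of 0.058 (-0.41 to 0.53). IP control held 202, 206 and 205 counts and IP shGpr151 154, 129 and 146. The sums of 613 and 429 gave -0.19 (-0.37 to -0.0075). That IP difference was not called, and the columns did not overlap. In control, IP exceeded Input by a log2 ratio of 1.38 (1.04 to 1.74), and between the libraries labelled shGpr151 by 1.13 (0.79 to 1.496). Both were called, and stayed called in 16 of 16 alternatives each, including summed libraries whose BCV was set to 20%.

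The proximal promoter of Asns holds a match to the C/EBP-ATF response element, the sequence to which ATF4 binds with a C/EBP partner, which is why it is shown here. RefSeq promoter windows of build GRCm38.p6, 250 bases before to 50 after a start, were found for all 7 genes, 8 windows in all. The letters TGATGNAA were searched on both strands and occurred in 2 of these 8 windows, those of Asns and Trib3, and in 3.97% of 32851 windows of all genes. The palindrome TGACGTCA of the cAMP response element was in 0 of the 8 and in 1.79% of all windows, a share at which 0 of 8 says little about these genes. The Asns stretch lies at chr6:7693210-7693269 on the minus strand and ends at the base before the start. The Trib3 site lies within the first bases of the transcript, at chr2:152344031-152344054 on the minus strand, with the motif opposite to the gene. Capitals mark the motif. A match is a description of letters and was not tested as a binding site.
Asns: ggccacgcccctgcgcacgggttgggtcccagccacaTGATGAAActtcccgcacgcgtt
Trib3: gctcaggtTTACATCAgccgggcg

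Trib3 (ENSMUSG00000032715), a pseudokinase that is induced by ATF4 and dampens it in turn, had few counts. Input control held 3, 1 and 4, Input shGpr151 3, 1 and 3, IP control 11, 11 and 12, and IP shGpr151 5, 6 and 8. The IP columns did not overlap and were the lower in the library labelled shGpr151. The log2 ratio of -0.51 (-1.41 to 0.34) on 34 and 19 counts was not called. At 8 and 7 counts the Input libraries allowed a ratio anywhere from -1.87 to 1.49. Trib3 passed the filter on low counts through the IP control columns, where it is highest. Its IP ratio and the order of its IP columns are therefore not free of that selection.

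Ddit4 (ENSMUSG00000020108), also named REDD1, restrains the growth kinase complex mTORC1 under stress. Its ratios lay on the opposite side of 0 from those of Atf4 and Ddit3 in both pairs. Input control held 25, 20 and 21 counts and Input shGpr151 18, 11 and 10. All columns labelled shGpr151 were the lower, and the sums of 66 and 39 counts gave a log2 ratio of -0.74 (-1.35 to -0.15), which was not called. IP control held 145, 153 and 175 counts and IP shGpr151 145, 164 and 145. On TMM sizes the IP columns labelled shGpr151 were all the higher, and the sums of 473 and 454 counts gave 0.27 (0.079 to 0.46), not called either. The Input ratio became a call in 2 of 16 alternatives. These were the fit without the first Input shGpr151 column, at -1.05, and a filter on a mean of 20 counts, at -0.80. The IP ratio became a call in 3 of 16. These were total counts, at 0.31, the same filter, at 0.29, and the fit without the third IP control column, at 0.33.

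Sesn2 (ENSMUSG00000028893), a sestrin that senses leucine and also restrains mTORC1, had too few counts to be tested. Its columns ran from 1 to 4 counts in Input and from 3 to 7 in IP. The sums were 6 and 8 in the Input libraries and 16 and 17 in the IP libraries, control first. The log2 ratios were 0.44 (-1.28 to 2.24) in Input and 0.41 (-0.66 to 1.495) in IP, and the Input interval holds a 2-fold difference in either direction.

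Of the 7 genes, 6 passed the filter on low counts. In the IP pair, 0 were called higher and 1 lower, where 3.72% of all genes tested were called higher and 4.97% lower. At an unadjusted p under 0.05 edgeR had 1 higher and 3 lower, and DESeq2 called 0 and 1. In the Input pair, 2 were called higher and 0 lower against 8.31% and 8.66% of all genes. At an unadjusted p under 0.05 these were 2 and 1, and DESeq2 called 2 and 0. The median log2 ratio of the 7 genes was -0.19 in IP and 0.058 in Input, beside 0.0035 and -0.066 over all genes tested. With 1 summed library per group and an assumed BCV of 10%, the call count in each pair was 0, so the hairpin comparisons hold only as differences between these libraries.

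The IP and Input libraries were compared next. Input is not selected for sensory neurons, so these ratios do not tell cell of origin from ribosome association. Relative to library totals, TMM sizes lower each log2 ratio of IP against Input by 2.17 (control) or 2.19 (shGpr151), so a value near 0 means enriched as much as the typical gene. On total counts Atf4 had 2.48 and 1.95, Atf5 2.25 and 2.55, Ddit3 2.15 and 1.46, control first. In control, 3 of the 6 tested genes were called higher and 0 lower, where 32.5% and 32.8% of all genes were called. At an unadjusted p under 0.05 the counts were also 3 and 0, as they were in DESeq2. Those called were Asns, Ddit4 at 1.24 (0.87 to 1.64) and Atf4 at 0.31 (0.12 to 0.49). The Atf4 call ended without the second Input control column, at 0.19. Ddit3 stood at -0.018 (-0.20 to 0.17), at the level of the typical gene.

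Between the libraries labelled shGpr151, 2 of the 6 were called higher and 2 lower in IP than in Input, where 33.6% and 33.0% of all genes were called. Asns and Ddit4 were the higher ones, Ddit4 at 2.25 (1.78 to 2.76). Ddit3 was lower at -0.73 (-0.91 to -0.55) and Atf4 at -0.24 (-0.42 to -0.059). On total counts the last pair were above 0, as given above. The Atf4 call, lower in 8 of 16 alternatives, ended without the second Input shGpr151 column, at -0.17, and without the first or second IP shGpr151 column, at -0.21 and -0.20. It also ended without a filter, at -0.16, with a filter on a mean of 20 counts, at -0.023, and with an assumed BCV of 10% or 20%. Atf5, at 0.35 (0.016 to 0.70), Trib3, at 0.15 (-1.16 to 1.64), and Sesn2, at -0.20 (-1.49 to 1.22), were not called.

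**Figure D2:**
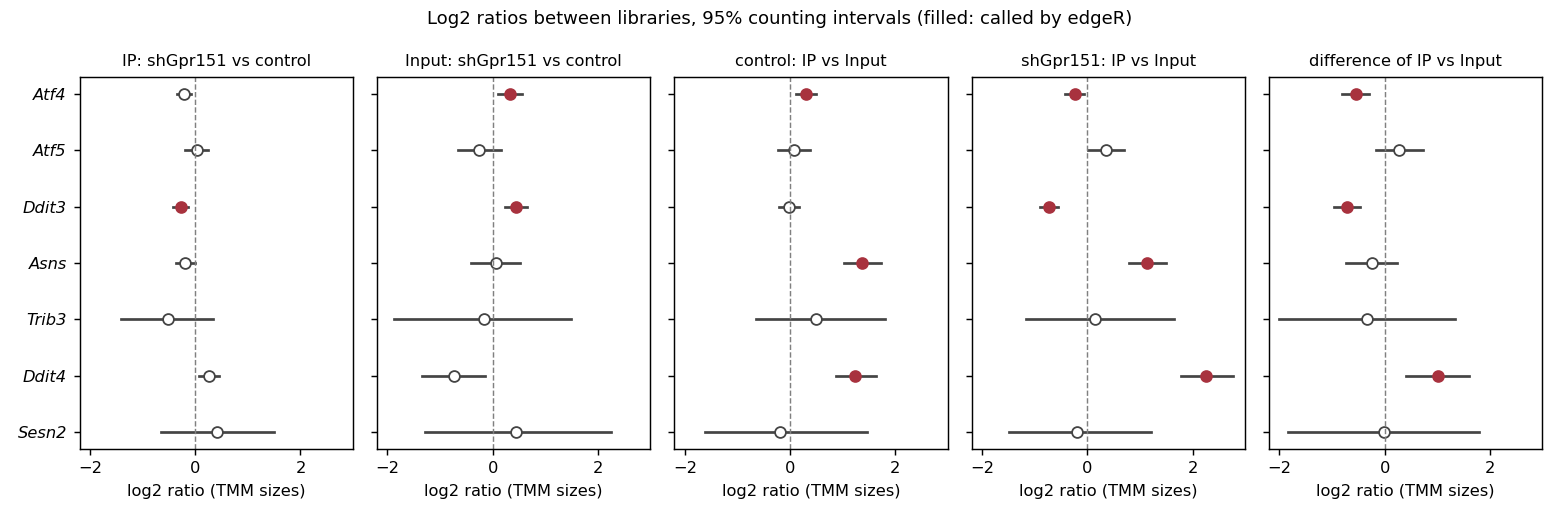
Log2 ratios on TMM sizes (horizontal axes) of the 7 genes (vertical axis) in 4 comparisons of libraries and, at the right, the IP against Input ratio labelled shGpr151 minus that in control. Lines are 95% counting intervals and filled points are edgeR calls; the right panel has Atf4 and Ddit3 left of 0 and Ddit4 right of 0.

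The difference between both IP against Input ratios, shGpr151 minus control, was called for 3 of the 6 genes. It was lower for Atf4, at -0.55 (-0.80 to -0.29), and for Ddit3, at -0.71 (-0.96 to -0.46), and higher for Ddit4, at 1.01 (0.41 to 1.61). Among all genes, 8.82% were called lower and 5.41% higher. Atf4 and Ddit3 were called in 19 of 21 alternatives each, the exceptions being assumed BCVs of 10% and 20%. For Ddit4, 16 of 21 kept the call. It was lost also without the first Input control column, at 0.90, and without the second or the third Input shGpr151 column, at 0.90 and 0.84. Of all genes tested, 14.98% lay below Atf4 in this difference, 9.10% below Ddit3 and 93.1% below Ddit4. Atf5 had 0.28 (-0.17 to 0.73), Asns -0.25 (-0.73 to 0.24), Trib3 -0.34 (-2.01 to 1.33) and Sesn2 -0.022 (-1.84 to 1.796), none of them called. The intervals of Asns, Trib3 and Sesn2 include the value of Atf4, -0.55. Like the ratios themselves, this difference does not tell cell of origin from ribosome association.

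Counts relative to Atf4 within a library need no scaling between libraries. Between the hairpin labels Ddit3 showed no difference from Atf4 beyond counting error. There were 1.11 Ddit3 counts per Atf4 count in Input control, 1.19 in Input shGpr151, 0.888 in IP control and 0.851 in IP shGpr151. Its ratio to Atf4 changed between the hairpin labels by a log2 value of 0.11 (-0.20 to 0.41) in Input and -0.061 (-0.26 to 0.13) in IP. From Input to IP it was lower, by -0.32 (-0.58 to -0.066) in control and -0.49 (-0.74 to -0.24) in the libraries labelled shGpr151. Ddit4 parted from Atf4. There were 0.221 Ddit4 counts per Atf4 count in Input control and 0.105 in Input shGpr151, a log2 change of -1.07 (-1.68 to -0.46), and 0.425 in IP control and 0.593 in IP shGpr151, a change of 0.48 (0.25 to 0.71). Asns had 0.262 and 0.216 in the Input libraries and 0.551 and 0.561 in the IP libraries, higher in IP, and its ratio differed by 0.026 (-0.20 to 0.25) between the IP libraries. Atf5 had 0.386 and 0.257 in Input, a change of -0.59 (-1.04 to -0.14), and 0.329 and 0.388 in IP, a change of 0.24 (-0.018 to 0.50). These ratios show unequal change, not which gene of a pair changed.

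**Figure D3:**
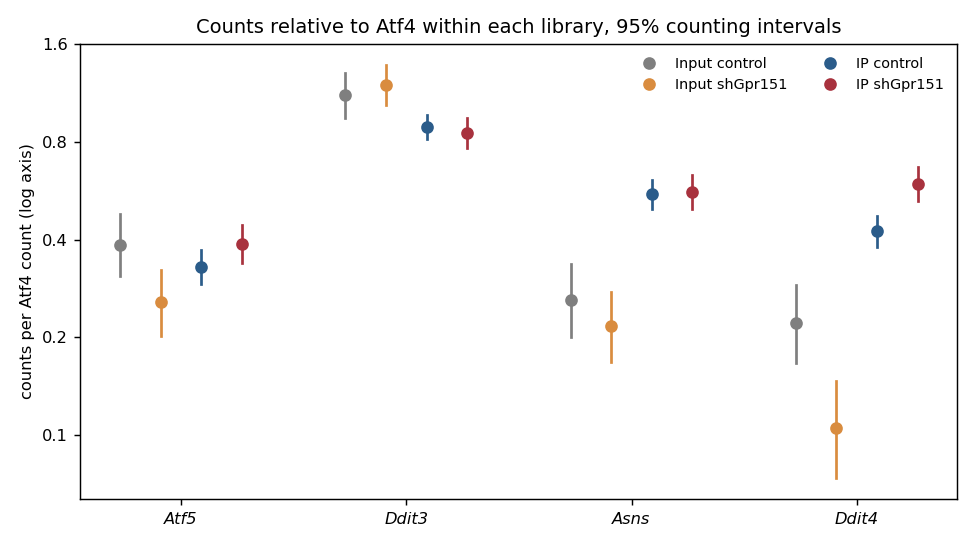
Counts of Atf5, Ddit3, Asns and Ddit4 per Atf4 count in each library (vertical log axis), with 95% counting intervals as lines. Ddit3 lies between 0.851 and 1.19, whereas Ddit4 stands at 0.221 and 0.105 in the Input libraries and at 0.425 and 0.593 in the IP libraries.

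On TMM sizes the order of the libraries differed by gene. For Atf4, Input shGpr151 and IP control came first and did not differ beyond counting error, followed by IP shGpr151 and Input control, which likewise did not. For Ddit3 the order was Input shGpr151, then Input control and IP control with no difference beyond counting error, then IP shGpr151. Ddit4 had IP shGpr151, IP control, Input control and Input shGpr151 in falling order, each step larger than its interval. Asns had IP control, IP shGpr151, Input shGpr151 and Input control, of which the last pair did not differ beyond counting error. For Atf5, Trib3 and Sesn2, 0 of the steps between neighbours exceeded the interval. The 3 genes nearest to Atf4 in pattern over the 4 libraries, among 1827 other genes with at least 100 counts in each, were Ifi27, Elp5 and Pdcd6, at a Euclidean distance of 0.048 to 0.054 in centred log2 CPM. Ifi27 had 681 and 838 counts in Input and 2575 and 1811 in IP, control first.

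The rest of the pathway was described from 6 lists of 112 genes, of which 98 were in the table and 95 were tested. The first list is the machinery that starts the response: eIF2, its kinases, its exchange factor eIF2B and the phosphatase that resets it. Of its 20 genes 18 were in the table. The kinase genes Eif2ak2 and Eif2ak4, the latter encoding GCN2, were not, so nothing can be said about them. In the IP pair 2 of 18 were called lower and 0 higher, beside 4.97% and 3.72% of all genes. At an unadjusted p under 0.05 edgeR had 3 and 0, and DESeq2 called 1 and 0. Eif2b1, a subunit of eIF2B, held 224 counts in IP control against 116 in IP shGpr151, or -0.62 (-0.96 to -0.29), and Eif2s2, the beta subunit of eIF2, had -0.16 (-0.21 to -0.10). In the Input pair 1 was called, Gcn1l1, an activator of the kinase GCN2, at -0.35 (-0.43 to -0.28). Of all genes, 8.31% were called higher and 8.66% lower there. For IP against Input in control, 8 were called higher and 4 lower, beside 32.5% and 32.8% of all genes. Eif2s3x, the gamma subunit of eIF2, had 50 counts in Input and 2845 in IP, a ratio of 4.23 (3.83 to 4.67). It has a close copy on the Y chromosome, and the labels do not say how reads were divided between them.

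Partners and relatives of ATF4 among basic leucine zipper factors were called between IP and Input, 7 of 13 higher and 4 lower in control, beside 32.5% and 32.8% of all genes. In the IP pair the shares called over all genes (3.72% and 4.97%) leave about 1 call for a list of this size. The shares were larger in the Input pair (8.31% and 8.66%) and in the difference of ratios (5.41% and 8.82%). Of the 13, 0 were called in the IP pair, in the Input pair or in the difference of ratios. At an unadjusted p under 0.05 edgeR had 1 lower in the IP pair and 0 in the other tests, and DESeq2 called 0 in each. Atf3, a factor induced by axon injury, had 106 and 89 counts in Input and 2009 and 1476 in IP, control first. Its IP against Input log2 ratio was 2.65 (2.37 to 2.94) in control, called higher. Fos had 1.37 (0.84 to 1.95). Nupr1, a small stress-induced chromatin protein listed with them, went the other way at -3.26 (-3.52 to -3.00), on 518 counts in Input control and 164 in IP control, as did Jund at -1.78 (-2.24 to -1.31). On total counts, which raise control ratios by 2.17, Nupr1 stays below 0. Jund is then above 0, with an interval that spans 0.

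Genes of amino acid supply, on which ATF4 acts, were mostly not called between the hairpin labels. Of 13 enzymes of amino acid synthesis and one-carbon metabolism, 1 was called higher in the IP pair, the mitochondrial folate enzyme gene Mthfd1l at 0.37 (0.13 to 0.62), and 2 lower in the Input pair. The matching shares of all genes were 3.72% and 8.66%. DESeq2 called 0 higher in the IP pair and 1 lower in the Input pair. Mthfd1l was the 1 pathway gene called higher in the IP pair, and that count was 0 in DESeq2, in limma-voom and when any IP column but the third of shGpr151 was left out. Phgdh, the first enzyme of serine synthesis and 1 of the 2 called lower in the Input pair, stood at 225 and 148 counts there, or -0.58 (-0.89 to -0.28). Of 7 amino acid transporters, 0 were called with the hairpin in Input or IP (at an unadjusted p under 0.05 in edgeR, 0 and 1, and in DESeq2, 0 and 0). In control, 4 were called higher in IP than in Input, as were 32.5% of all genes. Among them Slc7a1, the cationic amino acid carrier, had 1.45 (0.96 to 1.99) and Slc38a2, the glutamine carrier SNAT2, 1.03 (0.71 to 1.37).

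Cytosolic aminoacyl-tRNA synthetases and their scaffold proteins, which charge transfer RNAs and are ATF4 targets in part, had calls in both directions in Input, at a share near that of all genes (8.31% and 8.66%). Of 24 tested, 3 were called higher and 3 lower in the Input pair and 0 in the IP pair (at an unadjusted p under 0.05 in edgeR, 1 and 1, and in DESeq2, 0). Aimp2, a scaffold of the multi-synthetase complex, stood at 69 and 179 counts in Input, or 1.40 (0.99 to 1.82), and Eef1e1, another of its scaffold proteins, 0.82 (0.50 to 1.14). Nars had 576 and 397 counts, -0.52 (-0.70 to -0.33), and Sars -0.47 (-0.66 to -0.28). The difference of the IP against Input ratios was -1.46 (-1.91 to -0.999) for Aimp2 and -1.13 (-1.51 to -0.76) for Eef1e1, both called lower, and 0.57 (0.37 to 0.76) for Nars, called higher.

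Of 20 further stress response targets tested, 1 was called in the IP pair, the autophagy gene Map1lc3b at -0.16 (-0.23 to -0.093). In the Input pair 1 was called higher, the autophagy gene Atg12 at 0.67 (0.17 to 1.18), and 4 lower, among them Sqstm1, the autophagy receptor p62, at -0.32 (-0.54 to -0.11). DESeq2 called 0 higher and 1 lower here, so the Atg12 call was lost. Gadd45a, a stress-induced growth arrest gene, was called higher in IP than in Input in control, at 1.02 (0.76 to 1.30), and Gdf15, a stress-induced cytokine, lower at -1.99 (-2.53 to -1.46). On total counts, which raise control ratios by 2.17, Gdf15 is above 0, with an interval that spans 0. Over all 6 lists the calls in the IP pair were 1 higher and 3 lower of 95, or 1.05% and 3.16%, and in the Input pair 4 and 10, or 4.21% and 10.5%. The shares over all genes were the 3.72% and 4.97%, and the 8.31% and 8.66%, given above. For IP against Input in control 43.2% of the 95 were called higher and 25.3% lower, beside 32.5% and 32.8% of all genes. This balance depends on the scaling: on total counts 86 were called higher and 6 lower in place of 41 and 24, and between the libraries labelled shGpr151 88 and 6 in place of 42 and 26.

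**Figure D4:**
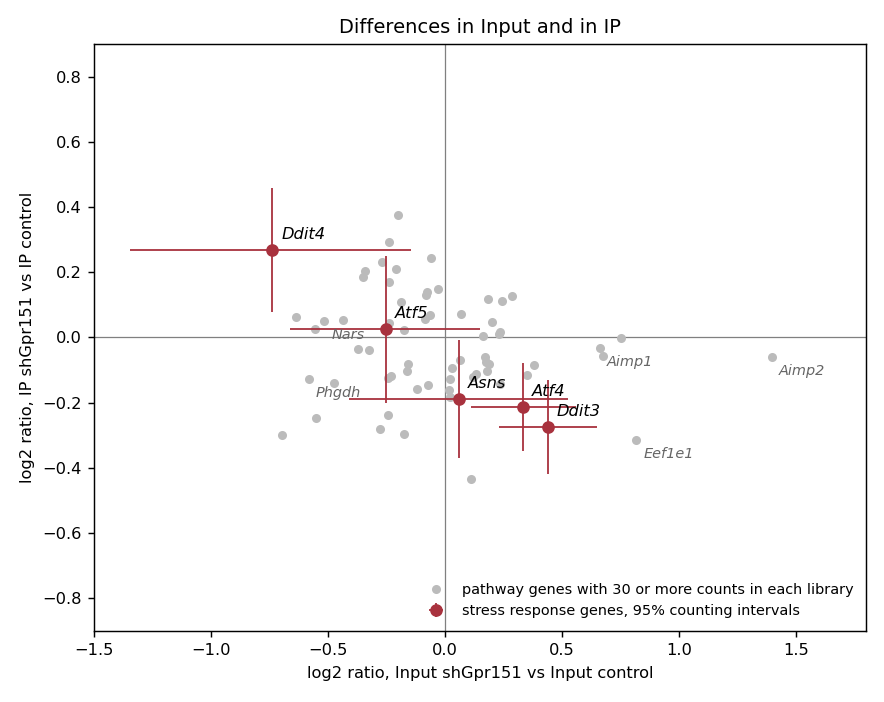
Log2 ratios of the libraries labelled shGpr151 to control in Input (horizontal axis) and in IP (vertical axis) for Atf4, Atf5, Ddit3, Asns and Ddit4, with 95% counting intervals, and in grey for 63 pathway genes with at least 30 counts in each library. Atf4 and Ddit3 lie at the lower right, higher in Input and lower in IP, and Ddit4 at the upper left.

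Markers of other cells were read beside these differences. Between the IP libraries 5 of 8 fibroblast markers in the table were called higher and 0 lower, beside 3.72% and 4.97% of all genes. The summed level of fibroblast markers was 1435 CPM in IP control and 1776 in IP shGpr151. In Input it was 608 and 534. Satellite glia markers (10 in the table) summed to 3162 and 3258 CPM in IP and 933 and 862 in Input, Schwann cell markers (7) to 1373 and 1300 and to 429 and 372, macrophage markers (11) to 542 and 569 and to 466 and 496, and endothelial and mural markers (7) to 362 and 350 and to 170 and 226. Of 6 endothelial and mural markers tested, 3 were called higher and 0 lower in the Input pair, beside 8.31% and 8.66% of all genes. In the difference of IP against Input ratios 3 were called lower, beside 8.82% of all genes. In the same difference 5 of 8 fibroblast markers were called higher and 0 lower, beside 5.41% and 8.82% of all genes. In the Input pair 0 fibroblast markers were called higher and 2 lower. Satellite glia markers had 3 higher and 1 lower calls of 10 in that difference. In the IP pair 0 endothelial and mural markers were called. Sensory neuron markers had 2 higher and 4 lower calls of 15 in the IP pair and 2 and 2 in the Input pair. No marker in the table was at 0, since each listed gene has a count in every column. The part of these cells in the differences of Atf4, Ddit3 and Ddit4 was not tested.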

How the data were processed

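Per the labels' protocols, lysate RNA and anti-HA IP RNA were made into libraries with a nanopore cDNA-PCR barcoding kit. The deposited file holds counts per Ensembl gene ID, whole numbers of at least 1, not normalized by the authors. The submitters' processing notes name minimap2, Salmon, GRCm39 and mm39, and give no versions. Filters, strand and the division of shared reads are not stated in the labels. Symbols matched 9061 of 9073 IDs. The members and gene lists were chosen with earlier results of these data known. The labels do not say whether samples of a group came from separate animals or cultures.

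The fit was edgeR 4.0.16 in R 4.3.3 with TMM sizes, filterByExpr at a minimum count of 10, 1 mean per group over 12 columns, glmQLFit and glmQLFTest, with p-values adjusted by Benjamini-Hochberg and a threshold of 0.05. The script was tested on simulated counts. Its common BCV of 1.22% is noise between columns, so no p-value of a gene is printed. Each ratio divides a group's summed count by its TMM sizes, with exact conditional binomial (Clopper-Pearson) 95% intervals, a normal approximation for differences of ratios, and exact Poisson intervals for CPM. Column numbers did not pair the columns: deviations from group means correlated by -0.036 to 0.038 over 18 pairs of columns. Alternatives were RLE sizes, total counts, DESeq2 1.42.0, limma-voom (limma 3.58.1), other filters, the compared groups alone, a replicate block, each column left out, and summed libraries with an assumed BCV of 10% or 20%. Named genes are all members and, per pathway list and comparison, up to 2 called genes each way with the largest ratio and at least 30 counts in the libraries compared, and the 3 genes nearest to Atf4. A result that this rule would name is not reported here. Figures used matplotlib 3.10.9.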

Additional observations from a re-analysis of the deposited data

Results flagged for a closer look

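The IP against Input log2 ratio differed between the hairpin labels for 3 genes by the interaction term of the edgeR fit, as shGpr151 minus control. The difference was -0.547 for Atf4, -0.713 for Ddit3 and 1.01 for Ddit4. In Ddit4 it rests on 39 counts in Input shGpr151, the fewest of the 4 libraries for this gene. With 1 library per group these differences have no check over separate animals or cultures.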

How the results depend on the processing

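Asns and Ddit4 stayed called higher in IP than in Input in each alternative run, in both treatments. Member counts called in the IP pair moved from 1 to 2 with RLE sizes, on total counts, without a filter, with a filter on a mean of 20 counts, in the compared groups alone and with the replicate block, and to 0 with an assumed BCV of 10% or 20%. In the Input pair they moved from 2 to 1 in limma-voom and to 0 with either BCV, in control IP against Input from 3 to 6 on total counts, in the libraries labelled shGpr151 from 4 (2 higher, 2 lower) to 6 (all higher) on total counts and to 2 at a BCV of 20%, and in the difference of ratios from 3 to 0 with either BCV. Leaving out 1 column gave 0 to 3, 1 to 3, 2 to 3, 3 to 5 and 2 to 3 members in these 5 comparisons. Pathway calls moved from 4 to 2 in DESeq2 and 0 with either BCV in the IP pair, from 14 to 9 in DESeq2 and to 1 and 0 with a BCV of 10% and 20% in the Input pair, from 65 to 35 and from 68 to 39 at a BCV of 20% for IP against Input in control and shGpr151, and from 12 to 1 and 0 in the difference of ratios. With 1 column left out they were 3 to 5, 11 to 14, 58 to 64, 62 to 66 and 7 to 12. On total counts IP against Input turned positive for Ddit3, at 2.15 in control and 1.46 in shGpr151, for Atf4, at 1.95 in shGpr151, and for Sesn2, at 1.99 in both. Ddit3 in control also turned positive without a filter, at 0.070, and with a mean of at least 20 counts, at 0.12, and Asns in the Input pair turned negative with that mean, at -0.0058. Signs also turned when 1 column was left out for Atf5 in the IP pair (-0.077 to 0.13) and in control IP against Input (-0.039 to 0.22), for Asns (-0.11 to 0.17) and Trib3 (-0.57 to 0.25) in the Input pair, for Ddit3 (-0.067 to 0.12) and Sesn2 (-0.50 to 0.24) in control IP against Input, for Trib3 (-0.21 to 0.37) and Sesn2 (-0.59 to 0.21) in shGpr151 IP against Input, and for Trib3 (-0.76 to 0.058) and Sesn2 (-0.44 to 0.39) in the difference of ratios. The cause of these changes was not tested. Depth limits Trib3 and Sesn2, with 6 to 34 counts per library.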

Other observations

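Of 24 genes for synthetases and their scaffold proteins, 3 were called higher and 3 lower in Input, beside 8.31% and 8.66% of all genes. The 3 higher ones encode scaffold proteins of the multi-synthetase complex, and Kars was among the lower ones, at -0.34. Aimp1, chosen after its values were seen, had 104 and 162 counts in Input control and Input shGpr151 and was called higher there, as were Aimp2 and Eef1e1, with a log2 ratio of 0.66. In IP the 3 genes had 768 and 599, 378 and 289, and 487 and 312 counts, control first, with log2 ratios of -0.031, -0.060 and -0.32, none called.

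Among pathway genes, Gcn1l1, Kars and Klhl24 stood more than 16-fold below Input in IP on TMM sizes, with either virus, as did 424 genes of the table and 0 of the 7 stress response genes. Klhl24 had 14880 and 12174 counts in Input and 510 and 477 in IP. In Input their log2 ratios of shGpr151 to control were -0.35 for Gcn1l1, -0.34 for Kars and -0.27 for Klhl24.

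Among the 28 sets of 3 columns (7 genes in 4 groups) the variance was 0.021 to 3.48 times the mean, with a median of 0.88. Atf4 in Input control was the 1 set above the 95% limit of counting noise.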
